A study of Mus musculus with 16 samples.

Results

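DNA replication and mitosis were followed through 47 mouse genes in 16 expression arrays of cells differentiating from embryonic stem (ES) cells towards blood. The genes were taken from a fixed list of 3 classes. It held 22 S phase genes for the licensing and firing of replication origins, the replication fork, nucleotide supply and the entry into S phase. It held 19 G2/M genes for the mitotic cyclins and kinases, the spindle checkpoint, the spindle motors and the kinetochore, and 6 genes of G1, namely the D-type cyclins Ccnd1, Ccnd2 and Ccnd3 and the inhibitors Cdkn1a, Cdkn1b and Cdkn2c. All 47 had a probe and entered the tests, as part of 37149 genes tested, 20122 of them with a gene symbol. Each gene was represented by its brightest probe.

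The study asked at which step of blood specification the transcription factor Sp1 is needed. Sp1+/+ cells were E14 ES cells, and Sp1-/- cells came from 1 ES cell clone that makes a shortened Sp1 lacking its DNA-binding domain, so that the clone and the genotype cannot be told apart. The labels give the strain C57BL/6 for all samples. From each genotype 4 populations were profiled, with 2 arrays each. Flk1+ cells are mesodermal precursors taken from embryoid bodies with magnetic beads against the receptor Flk1. The other populations were sorted from blast culture, in which Flk1+ cells form endothelial and blood cells. HE1 is the first hemogenic endothelium (KIT+ Tie2+ CD41-), HE2 the second (KIT+ Tie2+ CD41+), and progenitors are KIT+ Tie2- CD41+.

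Before S phase, the Mcm2 to Mcm7 helicase is loaded on replication origins by Cdc6 and Cdt1, and in S phase the GINS complex and Cdc45 turn it into an active helicase. E2F factors drive many of these genes once D-type cyclins with Cdk4 or Cdk6, and then cyclin E with Cdk2, have inactivated the retinoblastoma protein. Genes of G2 and mitosis are transcribed later in the cycle, through promoters that often hold CCAAT boxes and the cell cycle homology region (CHR), and their messages are low in cells that do not divide. Cdkn1a and Cdkn1b bind and inhibit cyclin-Cdk complexes, whereas Cdkn2c inhibits Cdk4 and Cdk6. Sp1 binds GC boxes, which are common in CpG-rich promoters.

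Values are deposited log2 intensities, in which 1 unit is a 2-fold difference, and no level is set against that of another gene. Between 67.0% and 77.1% of the spots were well above background per array, and none was saturated. Of the members' values, only 1 was not well above background, that of Ccne2 in Sp1-/- HE2 replicate 2 (6.23). The number of arrays limits the precision. The study calls the replicates biological, while a legend speaks of averaged technical replicates without saying which arrays it means. The p-values rest on the spread between the 2 arrays of a group, pooled for each gene over the 8 groups. In limma the pooled spread of a gene is also moved towards a value estimated from all genes tested. The spread between arrays may in part be technical. Each genotype filled a slide of its own. In every genotype difference below, the slide and the genotype therefore cannot be told apart. In these bulk samples, fewer cells of a type and less RNA per cell cannot be told apart either.

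The Sp1 probe, as a check of the labels, was called lower in Sp1-/- cells of every population, with log2 differences of -2.28 (Flk1+), -3.28 (HE1), -2.56 (HE2) and -2.90 (progenitors). The mean of 7 mesoderm markers was 12.63 to 13.57 on the Flk1+ arrays and 7.95 to 8.66 on the others. The mean of 8 endothelial markers was highest in HE1, at 12.31 to 12.76. Itga2b, which encodes CD41, was already above Flk1+ in the HE1 cells, labelled CD41-, by 2.77 in Sp1+/+ and 3.28 in Sp1-/- cells, and it was higher again in HE2 by 1.48 and 1.35 (limma adjusted p = 0.0165 and 0.0161). The mean of 8 blood progenitor markers was 8.57 to 9.52 in Flk1+ and HE1 and 11.03 to 11.64 in HE2 and progenitors. These means therefore set apart Flk1+, HE1 and the later populations, while the CD41 message was already raised in HE1. The blood progenitor mean did not separate HE2 from progenitors.

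Promoter sequences are shown for genes named below, because the classes differ in their motifs and because Sp1 reads GC boxes. They are RefSeq sequences (GRCm38.p6), 250 bases up to the annotated start, 5′ to 3′ on the strand of the gene. Capitals mark matches on either strand to 4 motifs. The GC box was searched as GGGCGG. The CCAAT box was searched as the letters of its name, and the CHR as TTTGAA. For the E2F site the letters were TTTGGCGC, with TTTCCCGC accepted as well. The S phase genes are Mcm5 of the replicative helicase (chr8:75109259-75109508, plus strand), Cdc6 (chr11:98907901-98908150, plus strand) and Tk1, cytosolic thymidine kinase (chr11:117826015-117826264, minus strand). The genes of G2/M are Ccnb2, cyclin B2 (chr9:70421555-70421804, minus strand), Cdc20, activator of the anaphase-promoting complex (chr4:118437344-118437593, minus strand), and Mki67, the chromosome surface protein Ki-67 (chr7:135716380-135716629, minus strand). For G1, Cdkn1a is shown at its second annotated start (chr17:29093519-29093768, plus strand), while the window of its first start held no match to any of the 4 motifs.
Mcm5: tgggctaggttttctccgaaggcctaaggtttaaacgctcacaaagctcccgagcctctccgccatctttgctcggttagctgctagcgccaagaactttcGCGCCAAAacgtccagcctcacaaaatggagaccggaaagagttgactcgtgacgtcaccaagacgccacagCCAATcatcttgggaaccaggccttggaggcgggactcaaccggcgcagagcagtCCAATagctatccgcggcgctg
Cdc6: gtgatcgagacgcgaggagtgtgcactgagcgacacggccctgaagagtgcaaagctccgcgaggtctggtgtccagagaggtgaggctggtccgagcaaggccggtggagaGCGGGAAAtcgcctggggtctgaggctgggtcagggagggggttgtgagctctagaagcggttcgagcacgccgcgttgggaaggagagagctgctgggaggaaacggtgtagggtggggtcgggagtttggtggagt
Tk1: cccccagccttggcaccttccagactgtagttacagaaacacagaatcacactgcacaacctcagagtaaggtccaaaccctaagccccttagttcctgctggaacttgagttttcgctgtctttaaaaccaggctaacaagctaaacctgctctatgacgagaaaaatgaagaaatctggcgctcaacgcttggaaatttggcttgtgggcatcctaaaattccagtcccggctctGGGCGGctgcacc
Ccnb2: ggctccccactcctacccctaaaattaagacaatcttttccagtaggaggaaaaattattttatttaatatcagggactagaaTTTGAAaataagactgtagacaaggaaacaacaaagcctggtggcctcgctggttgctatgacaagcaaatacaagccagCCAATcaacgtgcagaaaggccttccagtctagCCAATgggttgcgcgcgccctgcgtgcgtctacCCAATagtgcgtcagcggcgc
Cdc20: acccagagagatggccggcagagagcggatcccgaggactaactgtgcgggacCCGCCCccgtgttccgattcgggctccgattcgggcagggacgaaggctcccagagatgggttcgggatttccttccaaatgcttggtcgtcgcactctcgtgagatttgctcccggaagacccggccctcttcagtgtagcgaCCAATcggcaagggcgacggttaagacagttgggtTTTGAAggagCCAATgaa
Mki67: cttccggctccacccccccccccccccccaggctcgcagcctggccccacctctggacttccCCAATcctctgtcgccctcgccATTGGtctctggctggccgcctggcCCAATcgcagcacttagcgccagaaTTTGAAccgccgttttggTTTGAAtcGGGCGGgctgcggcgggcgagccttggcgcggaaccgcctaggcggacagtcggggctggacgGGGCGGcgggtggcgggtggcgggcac
Cdkn1a: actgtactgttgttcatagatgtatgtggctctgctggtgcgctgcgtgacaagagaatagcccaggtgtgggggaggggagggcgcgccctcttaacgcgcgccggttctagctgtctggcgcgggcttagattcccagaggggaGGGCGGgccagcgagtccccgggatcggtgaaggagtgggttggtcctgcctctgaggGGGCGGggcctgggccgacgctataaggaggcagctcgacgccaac

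Of the 47 members, 37 had a promoter in the table. In windows from 250 bases before to 50 after the start, the GC box was found in 83.8% of these 37 (95% exact interval 68.0 to 93.8) and in 38.2% of all 27025 genes with a promoter. It was in 77.8% of the 18 S phase genes and 86.7% of the 15 G2/M genes. The CCAAT box was found in 61.1% of the S phase and 93.3% of the G2/M genes, against 41.1% of all genes. The E2F site was found in 9 of the 18 S phase genes (26.0% to 74.0%), 0 of the 15 G2/M genes (0% to 21.8%) and 1.80% of all genes. E2f1 is counted among the 18, although its annotated start seems to lie inside its first exon. The CHR went the other way, with 11.1% of the S phase genes (1.38 to 34.7), 73.3% of the G2/M genes (44.9 to 92.2) and 20.2% of all genes. With only the 250 bases upstream searched, the E2F site was in 27.8% of the S phase genes (9.69 to 53.5, all genes 1.51%). The CHR was then in 40.0% of the G2/M genes (16.3 to 67.7), an interval that includes the 18.3% of all genes. Tk1 held 1 GC box and none of the other motifs, Mcm5 and Cdc6 held an E2F site and no GC box, and Mki67 held GC boxes, CCAAT boxes and CHR motifs. A match is a run of letters and not a bound site, and matches in genes with more than 1 start were pooled per gene.

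**Figure D1:**
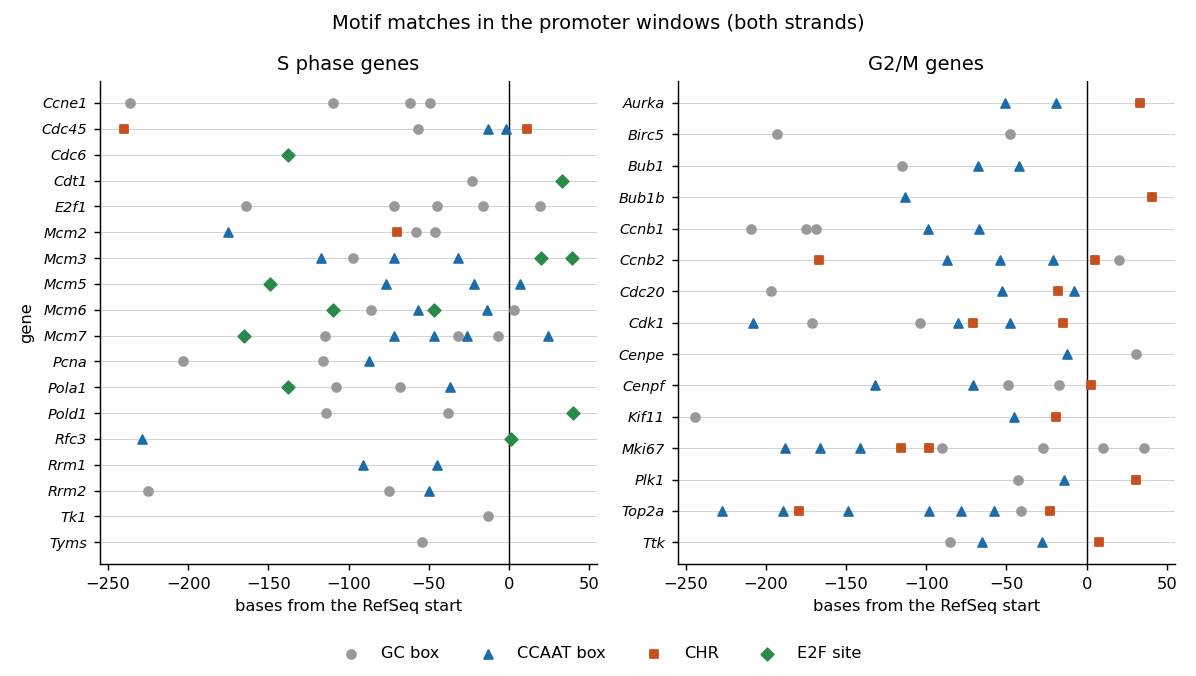
Position of motif matches relative to the annotated RefSeq start (horizontal axis, bases) in the promoters of S phase and G2/M genes (1 row per gene, colours for the GC box, CCAAT box, CHR and E2F site). E2F sites lie in rows of S phase genes alone, and the CHR was found in 73.3% of the G2/M genes against 11.1% of the S phase genes.

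Expression was compared along Flk1+, HE1, HE2 and progenitors within each genotype, and between the genotypes within each population. Adjacent steps share arrays: the change from Flk1+ to HE1, the change from HE1 to HE2 and the genotype difference in HE1 all rest on the HE1 arrays. A gene was called at the thresholds of the study, an unadjusted limma p of at most 0.01 with at least a 2-fold difference. A second, separate rule asked for a Benjamini-Hochberg adjusted p of at most 0.05 over all genes, with no fold, and a gene that met either rule is said below to have risen or fallen. Members with an unadjusted limma p under 0.05 are also counted. All genes were not counted by that rule, so these counts have no background share. The median difference over all genes tested lay between -0.01 and 0.02 in every comparison.

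**Figure D2:**
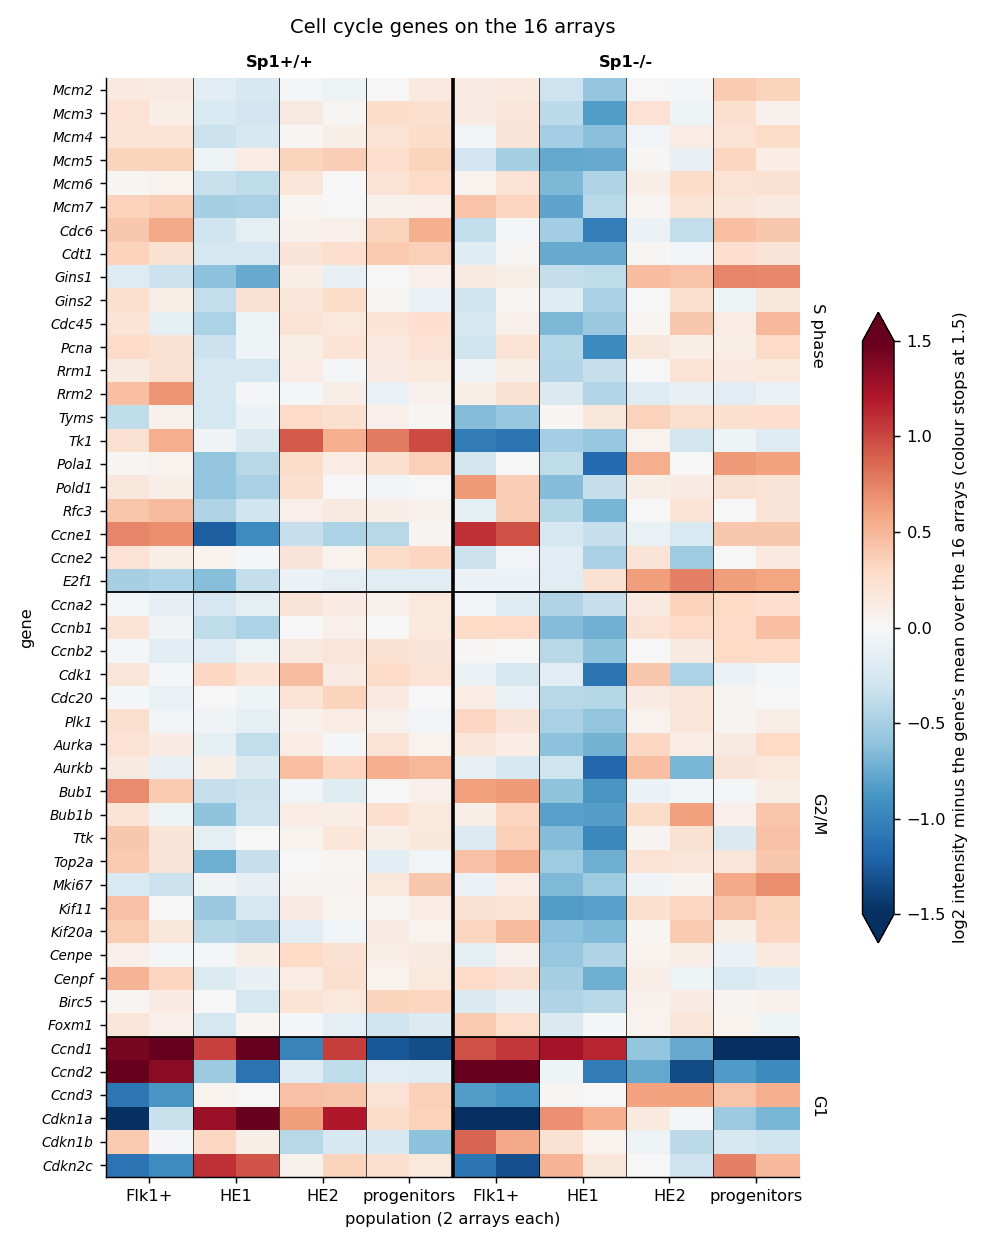
Heatmap of the 47 genes (rows, by class) on the 16 arrays (columns, by genotype, population and replicate), coloured by log2 intensity minus the gene's mean over all arrays (the colour scale is capped). Blue HE1 columns run through most S phase and G2/M rows and are deepest for the G2/M genes in Sp1-/- cells, whose class mean there deviated by -0.52 and -0.67.

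In wild-type cells S phase genes were lower in HE1 than in Flk1+ cells and higher again in HE2. All 22 had a lower mean in HE1, 13 of them with an adjusted p of at most 0.05, and the class median was -0.44. By the adjusted rule, 13.6% of all genes were lower and 11.2% higher at this step. By the call rule 3.89% of all genes were lower and 4.66% higher. Averaged over the class, the log2 intensity was 13.18 and 13.19 on the Flk1+ arrays, 12.62 and 12.74 on those of HE1, 13.14 and 13.08 on those of HE2, and 13.13 and 13.20 for progenitors. The 2 HE1 arrays lay below the 6 others.

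Ccne1 encodes cyclin E1, the partner of Cdk2 at the entry into S phase, and its fall was the largest of the S phase class. Its Sp1+/+ values were 14.25 and 14.22 in Flk1+, 12.28 and 12.58 in HE1, then 13.18 and 13.05 in HE2 and lastly 13.11 and 13.56 in progenitors. It fell 3.49-fold from Flk1+ to HE1 (log2 change -1.80, SE 0.14, adjusted p = 5.17e-06) and rose by 0.69 into HE2 (adjusted p = 0.0108). A second, dimmer Ccne1 probe gave -1.48 for the fall. Its HE1 values were the lowest of the 4 populations and did not overlap with those of any other.

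Among the helicase genes, Mcm2, Mcm4, Mcm6 and Mcm7 fell from Flk1+ to HE1, by between 0.34 (Mcm2) and 0.86 (Mcm7) on the log2 scale. Mcm7 went from 16.05 and 16.09 to 15.21 and 15.22, and returned to 15.74 and 15.70 in HE2. The loader Cdc6 fell by 0.70 and Cdt1 by 0.54. Cdt1 values were 14.89 and 14.77 in Flk1+, 14.28 and 14.30 in HE1, then 14.74 and 14.80 in HE2 and lastly 14.94 and 14.90 in progenitors, so its HE1 arrays stood below the rest. Rrm1 and Rrm2, the subunits of the ribonucleotide reductase that makes deoxyribonucleotides, fell by 0.44 and 0.70. Pold1, the catalytic subunit of DNA polymerase delta, fell by 0.67 and Rfc3 of the clamp loader by 0.81. From HE1 to HE2 all 22 S phase means were higher in Sp1+/+ cells, 7 of them by the adjusted rule (median 0.41), where 5.67% of all genes were higher and 5.03% lower. Tk1 showed the largest rise, 0.86 (adjusted p = 0.00532), from 13.07 and 12.91 to 14.04 and 13.66. Pola1, the primase-bound DNA polymerase alpha, went from 11.22 and 11.40 to 12.09 and 11.93, a difference of 0.70 that missed the adjusted threshold (adjusted p = 0.0835). The number of S phase genes past the adjusted rule dropped from 7 to 2 without Sp1+/+ HE2 replicate 1 and to 4 without Sp1+/+ HE1 replicate 1.

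Within Sp1-/- cells 19 of the 22 S phase genes had a lower mean in HE1 than in Flk1+, 15 by the adjusted rule, with a median of -0.58. Over all genes 16.0% were lower and 12.6% higher by that rule, and 4.87% lower and 4.62% higher by the call rule. Class means were 12.92 and 13.05 in Flk1+, 12.56 and 12.46 in HE1, then 13.11 and 13.07 in HE2 and lastly 13.23 and 13.25 in progenitors. As in wild-type cells, the HE1 arrays were the lowest. Ccne1 fell by 1.33 (adjusted p = 3.79e-05) and Pold1, at 14.16 and 13.89 in Flk1+ and 12.87 and 13.16 in HE1, by 1.01 (adjusted p = 9.23e-05). Against the class, Tyms, the thymidylate synthase, rose by 0.71 from 8.58 and 8.67 to 9.27 and 9.40 (adjusted p = 0.00152), and Tk1 rose by 0.53 from 12.08 and 12.03 to 12.61 and 12.56 (adjusted p = 0.0251). Both supply thymidine nucleotides. From HE1 to HE2 all 22 were higher in Sp1-/- cells, 16 by the adjusted rule (median 0.63), beside 10.5% of all genes higher and 8.06% lower. Pola1, at 11.43 and 10.65 in HE1 and 12.36 and 11.81 in HE2, rose by 1.04 (adjusted p = 0.00836), with 0.65 and 1.43 as the lowest and highest values when 1 array was left out.

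**Figure D3:**
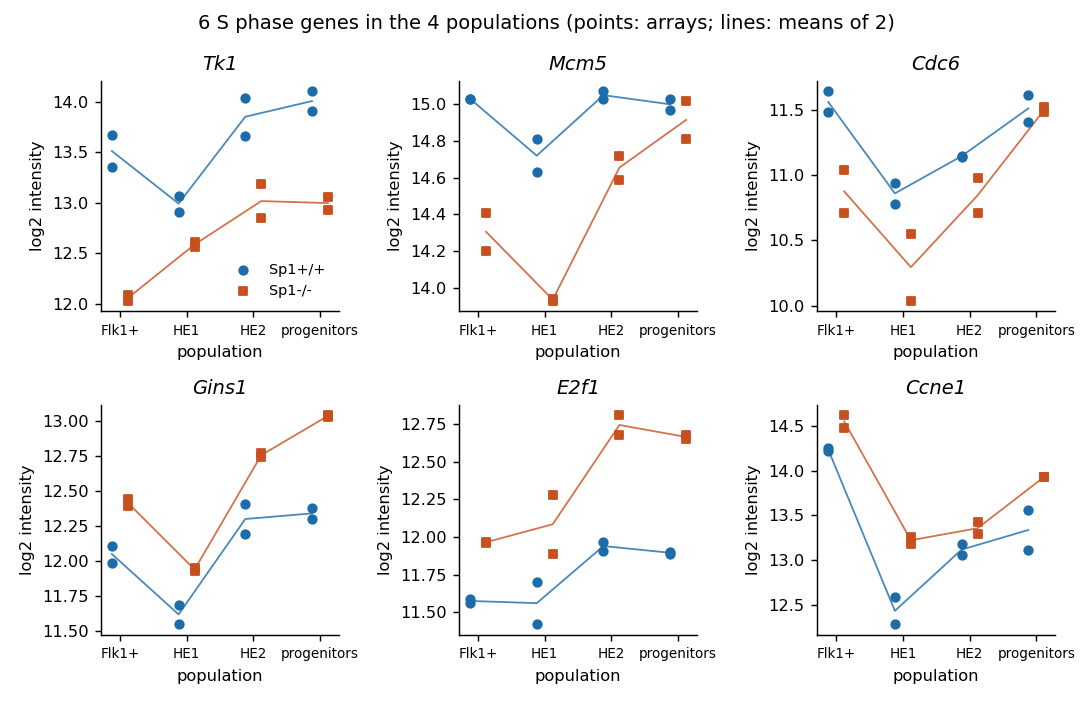
Log2 intensity (vertical axis) of Tk1, Mcm5, Cdc6, Gins1, E2f1 and Ccne1 on every array, by population (horizontal axis) and genotype (colour), with each point 1 array and lines through the means. Ccne1 dips in HE1 in both genotypes, the Sp1-/- points of Tk1 lie below the Sp1+/+ points of the same population, and those of Gins1 and E2f1 lie above.

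G2/M genes were lower in HE1 as well, and the difference between the genotypes is tested below. From Flk1+ to HE1, 15 of 19 were lower in Sp1+/+ cells, 8 by the adjusted rule (median -0.24), and all 19 in Sp1-/- cells, 17 by the adjusted rule (median -0.79). The class mean was 12.84 and 12.66 in Sp1+/+ Flk1+ cells and 12.42 and 12.45 in HE1, and 12.75 and 12.78 in Sp1-/- Flk1+ cells and 12.10 and 11.96 in HE1. In HE2 the means were 12.75 and 12.73 in Sp1+/+ and 12.76 and 12.74 in Sp1-/- cells. The arrays of the genotypes overlapped in Flk1+ and HE2 cells and did not overlap in HE1.

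Bub1 and Bub1b encode kinases of the spindle assembly checkpoint. Bub1 values in Sp1-/- cells were 12.77 and 12.80 in Flk1+, 11.55 and 11.28 in HE1, then 12.07 and 12.12 in HE2 and lastly 12.13 and 12.26 in progenitors. It fell by 1.37 from Flk1+ to HE1 (SE 0.12, adjusted p = 8.03e-06) and by 0.88 in Sp1+/+ cells (adjusted p = 0.000198), where the values were 12.86 and 12.55 in Flk1+ and 11.81 and 11.83 in HE1. Bub1b in Sp1-/- cells went from 12.49 and 12.72 to 11.59 and 11.57 and then to 12.68 and 13.02 in HE2. Its fall by 1.02 (adjusted p = 0.000488) and its rise by 1.27 (adjusted p = 0.0003) both passed the call rule. Ttk, another checkpoint kinase, rose by 0.94 from HE1 (8.47 and 8.15) to HE2 (9.16 and 9.35, adjusted p = 0.0121).

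Kif11, the motor that separates spindle poles, was 11.14 and 11.13 in Sp1-/- Flk1+ cells, 10.07 and 10.10 in HE1, then 11.15 and 11.22 in HE2 and lastly 11.34 and 11.25 in progenitors. It fell by 1.05 on the log2 scale into HE1 and rose 2.14-fold into HE2 (adjusted p = 0.000137 and 0.000278). In Sp1+/+ cells Kif11 was 11.35 and 10.92 in Flk1+, 10.36 and 10.65 in HE1, then 11.04 and 10.94 in HE2, a fall by 0.63 and a rise of 0.48 (adjusted p = 0.00475 and 0.0428). Top2a, the topoisomerase that untangles sister chromatids, fell by 1.13 in Sp1-/- cells, from 13.49 and 13.60 to 12.52 and 12.32, and the cytokinesis motor Kif20a by 1.04, from 13.36 and 13.52 to 12.43 and 12.38. Mki67 was 14.75 and 14.66 in Sp1+/+ Flk1+ cells and 14.93 and 14.86 in HE1, a difference of 0.19 in the other direction, and in Sp1-/- cells it fell by 0.61 from 14.90 and 15.10 to 14.32 and 14.45 (adjusted p = 0.0012).

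From HE1 to HE2 all 19 G2/M genes were higher in both genotypes, 6 by the adjusted rule in Sp1+/+ (median 0.30) and 16 in Sp1-/- cells (median 0.64). The Sp1+/+ count fell to 0 without either Sp1+/+ HE2 array, and to 2 without any one of the Sp1+/+ HE1 and progenitor arrays. By the adjusted rule 5.67% of all genes were higher in Sp1+/+ and 10.5% in Sp1-/- cells. By the call rule 1.08% of all genes were higher and 2.22% lower at this step in Sp1+/+ cells, and 2.08% higher and 3.53% lower in Sp1-/- cells, where Bub1b and Kif11 were the G2/M genes called.

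Between HE2 and progenitors no change of a member passed a test in wild-type cells. None of the 47 genes was called or passed the adjusted rule in limma, and 2 had an unadjusted p under 0.05. Student's t-test, which the study names for comparing the genotypes beside limma for its arrays, called none there either. Over all genes 1.02% were called higher and 0.727% lower, and 1.69% were higher and 1.35% lower by the adjusted rule. The largest differences outside G1 were those of Cdc6 (0.37), Gins2 (-0.27) and Mki67 (0.24). Mki67 values were 15.03 and 15.02 in HE2 and 15.14 and 15.39 in progenitors. At this step 2.33% of all genes were called higher and 2.67% lower in Sp1-/- cells, and 7.38% were higher and 7.98% lower by the adjusted rule. Of the S phase genes 3 rose by that rule, Mcm2 by 0.37, Ccne1 by 0.58 (adjusted p = 0.0204) and Cdc6 by 0.66 (adjusted p = 0.0246), the last from 10.98 and 10.71 to 11.52 and 11.48. Of the G2/M genes Mki67 alone rose, by 0.63 from 14.93 and 15.03 to 15.55 and 15.68 (adjusted p = 0.00253). The medians of the classes, 0.08 and -0.01, stayed close to that of all genes.

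The G1 genes did not share 1 direction, and they held the member with the largest difference at each step of each genotype. Ccnd1, cyclin D1, was 13.86 and 14.02 in Sp1+/+ Flk1+ cells, 13.46 and 14.85 in HE1, then 11.43 and 13.47 in HE2 and lastly 11.16 and 11.10 in progenitors. In Sp1-/- cells it was 13.38 and 13.49, 13.68 and 13.57, 11.85 and 11.67, and 8.94 and 8.96. Its level in HE1 was thus like that in Flk1+ cells, and it was lowest in progenitors in both genotypes. Into HE2 it fell by 1.70 in Sp1+/+ cells (SE 0.54), which met the call rule but not the adjusted one (adjusted p = 0.0709). There the arrays overlapped, and the change was -0.68 without HE2 replicate 1, -1.01 without HE1 replicate 2, -2.40 without HE1 replicate 1 and -2.72 without HE2 replicate 2. The call was kept only when HE1 replicate 1 or HE2 replicate 2 was the array left out. The Sp1-/- replicates lay close together, but the SE is pooled over all groups and was widened by Sp1+/+ HE1 and HE2 (SD 0.98 and 1.44). In Sp1-/- cells Ccnd1 fell by 1.87 from HE1 to HE2 (adjusted p = 0.0323) and 7.01-fold, by 2.81, from HE2 to progenitors (adjusted p = 0.00502). The former call was lost when any one of its 4 arrays was left out, the latter under none.

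Endothelial markers were lower in HE2 and progenitors than in HE1, as Ccnd1 was. They were also low in Flk1+ cells, where Ccnd1 was high. The mean of 8 endothelial markers was 8.60 and 9.42 in Sp1+/+ and 8.88 and 9.15 in Sp1-/- Flk1+ cells. It was 12.72 and 12.76 in Sp1+/+ HE1, went to 10.55 and 11.71 in HE2 and 10.00 and 8.63 in progenitors, and was 12.34 and 12.31, 10.57 and 10.58, and 7.43 and 7.69 in Sp1-/- cells. HE2 replicate 2 of Sp1+/+ was the higher in both the endothelial markers and Ccnd1. Other Sp1+/+ pairs did not move together. In HE1 the endothelial means lay close together while Ccnd1 had an SD of 0.98. In progenitors those means lay apart while Ccnd1 had an SD of 0.04. The mean of 6 cardiac and smooth muscle markers was 11.45 and 11.16 in Sp1+/+ HE2, 11.45 and 11.08 in Sp1+/+ progenitors and 9.06 and 8.86 in Sp1-/- progenitors. In progenitors that of 10 erythroid markers was 12.51 and 13.90 against 15.31 and 15.35. The part of these markers in the Ccnd1 values was not tested.

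Ccnd2, cyclin D2, changed at the first step. It fell 5.33-fold from Flk1+ to HE1 in Sp1+/+ cells, from 12.85 and 12.37 to 10.48 and 9.91 (log2 change -2.41, SE 0.31, adjusted p = 0.000136), and was 10.83 and 10.64 in HE2 and 10.85 and 10.83 in progenitors. In Sp1-/- cells it fell 6.84-fold, from 13.13 and 13.35 to 10.96 and 9.97 (adjusted p = 4.54e-05), and was 10.25 and 9.68 in HE2 and 10.17 and 10.07 in progenitors. Ccnd3, cyclin D3, rose instead. Its values were 14.80 and 15.02 in Sp1+/+ Flk1+ cells, 15.94 and 15.88 in HE1, then 16.33 and 16.32 in HE2 and lastly 16.11 and 16.25 in progenitors. The Sp1-/- values were 15.05 and 14.99, 15.90 and 15.89, 16.49 and 16.49, and 16.32 and 16.42. The rise was 2.00-fold in Sp1+/+ cells (adjusted p = 1.28e-05) and 0.88 on the log2 scale in Sp1-/- cells, followed by 0.41 and 0.59 into HE2 (adjusted p = 0.0133 and 0.001). The D-type cyclins therefore peaked at different stages, Ccnd2 in Flk1+ cells, Ccnd1 in Flk1+ and HE1 cells and Ccnd3 in HE2 and progenitors.

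Among the inhibitors, Cdkn1a (p21) and Cdkn2c (p18) rose as replication genes fell. Cdkn1a was 10.28 and 11.49 in Sp1+/+ Flk1+ cells, 13.13 and 13.51 in HE1, then 12.46 and 13.03 in HE2 and lastly 12.10 and 12.18 in progenitors. In Sp1-/- cells it was 10.15 and 9.83, 12.51 and 12.38, 11.98 and 11.81, and 11.29 and 11.14. The rise into HE1 was 5.41-fold in Sp1+/+ (log2 change 2.44, SE 0.32, adjusted p = 0.000161) and 5.48-fold in Sp1-/- cells, and a second Cdkn1a probe gave a log2 change of 2.14 in Sp1+/+ cells. The Sp1+/+ change was 1.83 without Flk1+ replicate 1 and 3.04 without Flk1+ replicate 2, and passed either way. Its later differences, such as -0.61 from HE2 to progenitors in Sp1+/+ and -0.68 in Sp1-/- cells, passed neither rule.

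Cdkn2c was 7.04 and 7.20 in Sp1+/+ Flk1+ cells, 9.24 and 9.09 in HE1, then 8.21 and 8.48 in HE2 and lastly 8.39 and 8.30 in progenitors. In Sp1-/- cells it was 7.05 and 6.83, 8.66 and 8.31, 8.15 and 7.84, and 8.90 and 8.63. It rose 4.13-fold into HE1 in Sp1+/+ cells (adjusted p = 4.78e-06) and by 1.55 on the log2 scale in Sp1-/- cells, then fell by 0.82 into HE2 in Sp1+/+ cells (adjusted p = 0.00789). From HE2 to progenitors it rose by 0.77 in Sp1-/- cells alone by the adjusted rule (adjusted p = 0.00828), although the difference between the genotypes at that step did not pass it. Cdkn1b (p27) stayed within a narrower range. It was 12.03 and 11.62, 11.95 and 11.73, 11.22 and 11.40, and 11.40 and 11.02 along the Sp1+/+ series, and 12.51 and 12.21, 11.86 and 11.69, 11.56 and 11.25, and 11.40 and 11.34 along the Sp1-/- series, with a fall by 0.59 into Sp1-/- HE1 (adjusted p = 0.0306).

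**Figure D4:**
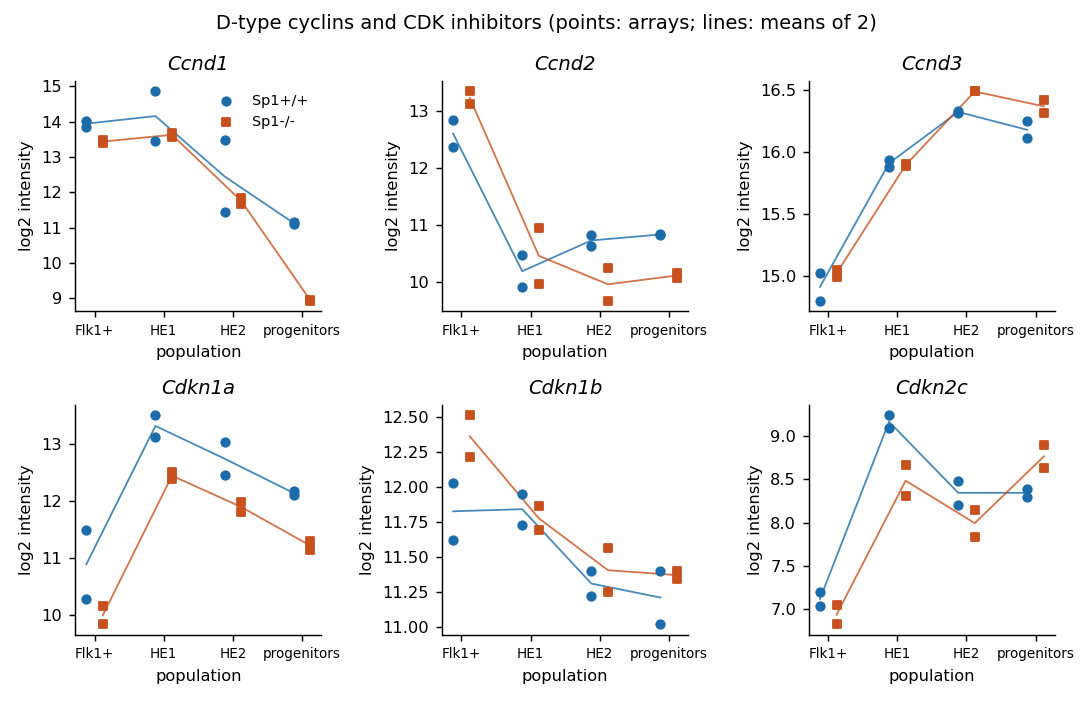
Log2 intensity (vertical axis) of the 6 G1 genes on every array, by population (horizontal axis) and genotype (colour), with each point 1 array and lines through the means. Ccnd2 drops from Flk1+ to HE1 while Ccnd3, Cdkn1a and Cdkn2c climb, and the Sp1-/- progenitors fall to 8.94 and 8.96 for Ccnd1.

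Between the genotypes, few members differed in Flk1+ cells, and those that fell were S phase genes. Tk1 alone was called, 1 of 47, where 0.778% of all genes were called higher and 0.867% lower. It was 13.35 and 13.67 in Sp1+/+ and 12.08 and 12.03 in Sp1-/- Flk1+ cells, a 2.74-fold fall (log2 difference -1.45, SE 0.16, adjusted p = 0.000409). The call held with any array left out (-1.62 to -1.30). By the adjusted rule 4 members were lower and 1 higher, beside 3.63% and 3.34% of all genes, and 2 were lower without Sp1+/+ replicate 2 or Sp1-/- replicate 1. Mcm5 fell by 0.73 (SE 0.10, adjusted p = 0.00228), from 15.03 and 15.03 to 14.41 and 14.20. Cdc6 fell by 0.68 (adjusted p = 0.0348), from 11.48 and 11.64 to 10.71 and 11.04, though its adjusted call was lost under 7 of the left-out arrays. Cdt1 fell by 0.36, and Gins1 of the GINS complex rose by 0.37 (adjusted p = 0.0387), a call lost under 10 of the left-out arrays. Of the 22 S phase genes, 15 had lower means in Sp1-/- Flk1+ cells and 6 higher ones (median -0.17). Arrays lay apart and lower for 13 and higher for 4 (23.8% and 27.8% of all genes). No G2/M gene passed either rule in limma, and 2 had an unadjusted p under 0.05.

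In HE1 no member was called in limma, where 0.972% of all genes were called higher and 1.13% lower. An unadjusted p under 0.05, for which no share of all genes was counted, was found for 27 of the 47. By the adjusted rule 10 members were lower and 2 higher, beside 5.48% and 4.35% of all genes, and 41 of the 47 means were lower. Of the 10, 7 were G2/M genes. None of the 19 was higher in Sp1-/- HE1 cells, 17 had arrays that lay apart and lower (22.1% of all genes did), and 7 passed the adjusted rule, with a median of -0.40 and a range from -0.89 to 0.00 (Foxm1, a transcription factor of G2/M genes). The class median was -0.44 to -0.33 with any 1 array left out, but the adjusted count of 7 went to 1 without either Sp1+/+ HE1 array, to 2 without Sp1-/- HE1 replicate 2 and to 11 without Sp1-/- HE1 replicate 1.

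The 7 genes have parts throughout mitosis. Ccnb2, the cyclin B2 partner of Cdk1, was 14.21 and 14.33 in Sp1+/+ HE1 and 13.99 and 13.80 in Sp1-/- HE1 (-0.38, adjusted p = 0.029). Cdc20, which triggers anaphase, was 15.19 and 15.12 against 14.77 and 14.76 (-0.39, adjusted p = 0.0263). The mitotic kinases Plk1, at 14.49 and 14.39 against 14.05 and 13.95, and Aurka, at 13.68 and 13.44 against 13.20 and 13.10, fell by 0.44 and 0.41. The Aurka difference was -0.53 to -0.29 with 1 array left out, and its adjusted call was lost under 13 of the left-out arrays. The kinetochore proteins Cenpe, at 13.35 and 13.47 against 12.80 and 12.92, and Cenpf, at 6.99 and 7.08 against 6.70 and 6.46, fell by 0.55 and 0.45. Mki67 fell by 0.51 (SE 0.11, adjusted p = 0.0152), and its second probe differed by -0.33. Cdk1, the kinase of entry into mitosis, had the largest difference of the class, -0.89, but with 13.04 and 12.93 against 12.56 and 11.63 it did not pass (adjusted p = 0.0885), while its other probes gave -0.84 and, for the dimmest, 0.35.

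Of the 22 S phase genes, 17 had lower means in Sp1-/- HE1 cells and 5 higher ones (median -0.26). Arrays lay apart and lower for 12 and higher for 4 (22.1% and 22.9% of all genes). Mcm5 fell by 0.79 (adjusted p = 0.00141), from 14.63 and 14.81 to 13.93 and 13.94, and Cdt1 by 0.50 (adjusted p = 0.0057), to 13.79 and 13.79. Ccne1 and E2f1, which act at the entry into S phase, were on the other side. Ccne1 was 0.79 higher, at 13.26 and 13.18 (SE 0.14, adjusted p = 0.00748). Its second probe gave 0.07, the mean over both 0.43, and the adjusted call was lost without Sp1+/+ HE1 replicate 1. E2f1 was 0.53 higher, at 11.89 and 12.28 against 11.42 and 11.70 (adjusted p = 0.026). Cdkn2c fell by 0.68 in HE1 (adjusted p = 0.0242). The endothelial marker mean was 12.72 and 12.76 in Sp1+/+ and 12.34 and 12.31 in Sp1-/- HE1 cells, the muscle marker mean 12.53 and 12.43 against 13.18 and 12.55, and the erythroid mean 10.63 and 7.93 against 9.11 and 9.10. Their part in the HE1 differences was not tested.

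In HE2 the differences were fewer. None of the members was called in limma, where 0.773% of all genes were called higher and 1.18% lower. An unadjusted p under 0.05 was found for 8 members. Gins1 (0.45) and E2f1 (0.80, adjusted p = 0.00353) were higher and Tk1 lower (-0.83, adjusted p = 0.00973) by the adjusted rule, by which 2.34% of all genes were higher and 3.34% lower. E2f1 was 11.97 and 11.91 in Sp1+/+ and 12.68 and 12.81 in Sp1-/- HE2 cells. No G2/M gene passed either rule, and 1 had an unadjusted p under 0.05. The median of the G2/M class was 0.02, and with the processed signals scaled to the percentile it was -0.05, so that it has no settled sign.

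In progenitors Ccnd1 and Tk1 were called, 2 of 47, where 1.50% of all genes were called higher and 2.61% lower. Ccnd1 fell 4.53-fold, from 11.16 and 11.10 to 8.94 and 8.96 (log2 difference -2.18, SE 0.54, unadjusted p = 0.00188, adjusted p = 0.0207). The value hardly moved with any 1 array left out (-2.21 to -2.15), but the call was lost without Sp1+/+ replicate 1 or either Sp1-/- replicate of the progenitors. Tk1 fell 2.01-fold, from 13.91 and 14.10 to 13.06 and 12.93 (adjusted p = 0.00151), and was under 2-fold without Sp1+/+ or Sp1-/- replicate 2 (-1.11 to -0.91 over all arrays left out). By the adjusted rule 3 members were higher, beside 6.18% of all genes, and 2 lower, beside 6.94%. Gins1 was 0.69 higher, at 13.04 and 13.03 against 12.30 and 12.38 (adjusted p = 0.000597), E2f1 0.77 higher, at 12.68 and 12.65 against 11.90 and 11.89 (adjusted p = 0.00216), and Ccne1 0.59 higher, at 13.93 and 13.93 against 13.11 and 13.56 (adjusted p = 0.0186). No G2/M gene passed either rule in limma, and 6 had an unadjusted p under 0.05, for which no share of all genes was counted. In this comparison the endothelial and muscle marker means given above were lower and the erythroid mean was higher. Their part in the Ccnd1 difference was not tested.

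**Figure D5:**
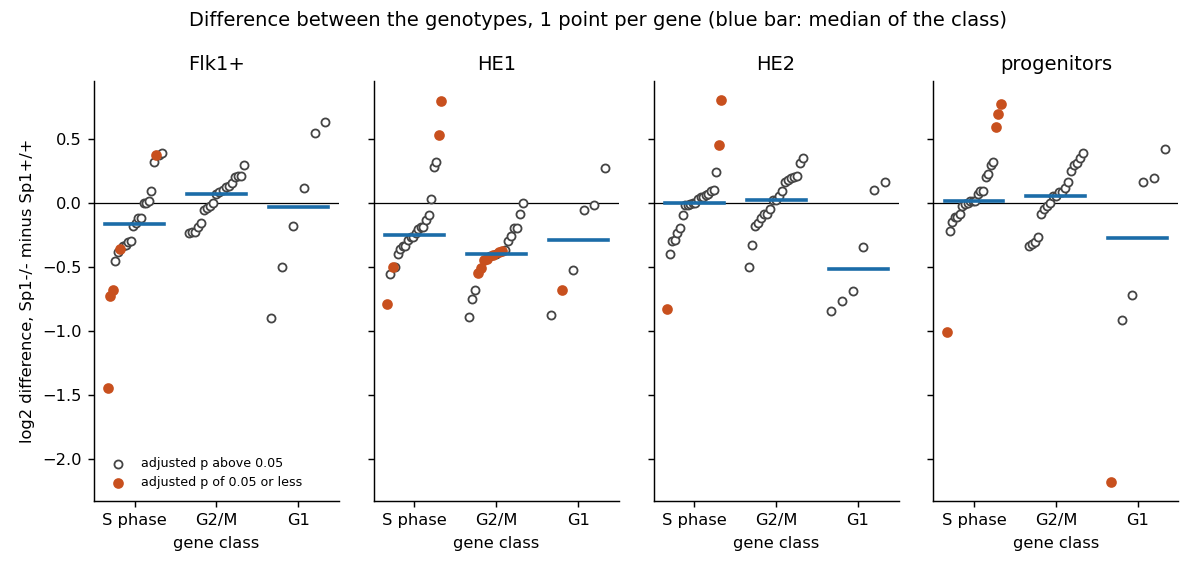
Difference between Sp1-/- and Sp1+/+ cells (vertical axis, log2) for each of the 47 genes (points) by class in the 4 populations, with filled orange points for an adjusted p of at most 0.05 and a blue bar for the class median. G2/M points sit at or below 0 in HE1, with a median of -0.40, and around 0 in the other populations.

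Across the populations, Tk1 was lower in Sp1-/- cells in Flk1+, HE2 and progenitors by the adjusted rule and differed by -0.40 in HE1 (adjusted p = 0.136). Gins1 and E2f1 were higher in Sp1-/- cells in 3 of the 4 populations each by the adjusted rule, for Gins1 with the limit given for Flk1+ cells. For Cdkn1a the difference was alike in all 4 populations, -0.90, -0.88, -0.85 and -0.92 (SE 0.32 each, pooled over the groups), yet none passed (adjusted p = 0.13, 0.112, 0.172 and 0.0856). Its second probe gave -0.49, -1.11, -1.16 and -1.18. Ccnd2 differed by 0.63 in Flk1+, 0.27 in HE1, -0.77 in HE2 and -0.72 in progenitors, and none of these passed (adjusted p = 0.288, 0.68, 0.208 and 0.166).

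Whether the genotypes differed in the size of a change was tested directly. From Flk1+ to HE1 the change of Mki67 was lower in Sp1-/- than in Sp1+/+ cells (difference of the changes -0.80, SE 0.15, adjusted p = 0.0382). Tk1, which fell in Sp1+/+ and rose in Sp1-/- cells, differed by 1.05 (SE 0.22, unadjusted p = 0.00061, adjusted p = 0.0562) and was the 1 member called at this step, where 1.60% of all genes were called and 0.948% passed the adjusted rule. All 19 G2/M interactions were negative here, with a median of -0.47, but all rest on the same arrays and Mki67 alone passed. An unadjusted p under 0.05, a rule without a share of all genes, was found for 9. The Mki67 difference no longer passed under 12 of the 16 arrays left out and was -0.44, not passing, with the processed signal. From HE1 to HE2 all 19 were positive (median 0.45). None of the 47 members was called or passed the adjusted rule in limma at that step, where 0.743% of all genes were called and 0.102% passed the adjusted rule. An unadjusted p under 0.05, again without a share of all genes, was found for 14 members. From HE2 to progenitors, where the percentages were 1.59 and 0.783, no member was called or passed in limma and 2 had an unadjusted p under 0.05. The difference for Ccnd1, -1.49, was not past the threshold (adjusted p = 0.527). From Flk1+ to progenitors 3.83% of all genes were called and 5.11% passed the adjusted rule. There Mcm5, lower in Sp1-/- Flk1+ cells and at 15.02 and 14.81 in Sp1-/- progenitors against 14.97 and 15.03 in Sp1+/+, differed by 0.64 (adjusted p = 0.0311), and Ccnd2 by -1.35 (SE 0.43, unadjusted p = 0.00987, adjusted p = 0.112).

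Further genes of the same pathways were counted from lists of 42 replication, 45 mitosis, 25 G1 and restriction point genes and 16 p53 targets. In Sp1+/+ cells 21 of the 42 replication genes were lower in HE1 than in Flk1+ by the adjusted rule and 0 higher (median -0.42), and 25 and 0 in Sp1-/- cells (median -0.57), where 13.6% and 16.0% of all genes were lower. Dut, which removes dUTP, fell by 1.29 and 1.45, and the initiation factor Mcm10 by 1.23 and 1.32. Between HE1 and HE2, 16 of the 42 rose in Sp1+/+ and 33 in Sp1-/- cells (5.67% and 10.5% of all genes), the called ones led in Sp1-/- cells by the histone mRNA binding protein Slbp (1.09), the polymerase subunit Pole2 (1.07) and the checkpoint adaptor Clspn (1.04). Between the genotypes, 8 of the 42 were lower and 2 higher in HE1 (median -0.24), beside 5.48% and 4.35% of all genes, and 0 lower and 7 higher in progenitors (median 0.14), beside 6.94% and 6.18%.

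Of the 45 other mitosis genes, 13 fell and 1 rose from Flk1+ to HE1 in Sp1+/+ cells and 37 fell in Sp1-/- cells (medians -0.27 and -0.64), where 13.6% and 16.0% of all genes fell. In Sp1-/- cells the condensin subunit Ncapg fell by 1.20, the kinase Melk by 1.16 and the kinetochore protein Spc24 by 1.15. Between HE1 and HE2, 8 rose in Sp1+/+ and 39 in Sp1-/- cells (5.67% and 10.5% of all genes). Between the genotypes in HE1, 15 were lower and 1 higher (median -0.39), beside 5.48% and 4.35% of all genes, and 41 of the 45 means were lower. Cdc25b, a phosphatase that activates Cdk1, was the 1 gene called there, with a difference of -1.55 (adjusted p = 0.000638), and it was 1.91 higher in Sp1-/- progenitors (adjusted p = 6.92e-05). Its change from Flk1+ to progenitors differed between the genotypes by 2.87 (adjusted p = 0.000524).

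The other G1 genes had no common direction. The inhibitors Cdkn2a and Cdkn2b rose from Flk1+ to HE1, by 2.54 and 2.36 in Sp1+/+ and by 2.71 and 1.69 in Sp1-/- cells, while Myc fell by 2.07 and 1.44. Cdkn1c (p57) was 2.20 higher in Sp1-/- than in Sp1+/+ HE1 cells (adjusted p = 0.00388) and fell by 3.04 from HE1 to HE2 in Sp1-/- cells. In progenitors Cdkn2b (-1.75) and Mycn (-1.53) were lower in Sp1-/- cells and Rb1, the retinoblastoma gene, higher (1.46). Of the 16 p53 targets, 10 rose and 1 fell from Flk1+ to HE1 in each genotype by the adjusted rule, by which 11.2% of all genes rose in Sp1+/+ and 12.6% in Sp1-/- cells. The kinase Plk2 rose by 2.46 in Sp1+/+ and 3.70 in Sp1-/- cells, and Phlda3, an inhibitor of Akt, by 1.88 and 2.63. In progenitors 7 of the 16 were lower and 2 higher in Sp1-/- cells (median -0.36), beside 6.94% and 6.18% of all genes, with Plk2 (-1.66), Zmat3 (-1.54) and Phlda3 (-1.47) as the called genes with the largest differences. In the same comparison all 8 endothelial markers (median -2.13) and all 6 muscle markers (median -2.55) had lower means and all 10 erythroid markers higher ones (median 2.20), and their part in the p53 target values was not tested.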

How the data were processed

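Cells of 8 groups, Sp1+/+ or Sp1-/- in 4 populations with 2 arrays each, were profiled on 16 one-color Agilent mouse arrays of 62976 spots. The authors extracted the spot intensities with Agilent Feature Extraction, corrected and quantile-normalized them and deposited log2 values per spot. The supplementary methods of the study give a normexp offset of 16, but the deposited log2 values were matched by an offset of 50 (largest difference 0.0258, against 1.63 for 16). Both the deposited intensities and the scanner's marks for spots above background were used for alternatives and checks.

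Spots of a probe were averaged, control spots were left out, and a gene was represented by its brightest probe. Of 37932 target names, 20869 were named by accession and 12 by symbol through the RefSeq table (GRCm38.p6), and 17051 kept the name in the file. A minimum log2 intensity of 6 on at least 1 array kept 55595 of 55681 probes and so removed little. Linear models were fitted with limma 3.58.1 in R 4.3.3 to 8 group means on all arrays (8 residual degrees of freedom), with the genotype differences, the changes between adjacent populations and the interactions as contrasts. The script recovered known changes when tested on simulated data, but the changes added there were larger than most differences reported here. Members, lists and tests were chosen with earlier results of these data known. Values per array are given for all G1 genes, for members called in a genotype comparison or an interaction, and for the 5 members with the largest change at each step, while further members are named where a test or a role calls for it. Of other lists at most 3 called genes per comparison are named. In those lists Kif14 and Skp2 had no probe. Alternatives were the offset of 16, no background correction, the processed signal scaled to the 75th percentile, other filters and probe summaries, a replicate block, fits on fewer arrays, other call rules, Student's t-test and leaving out each array.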

Additional observations from a re-analysis of the deposited data

Results flagged for a closer look

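Changes of 4 members differed between the genotypes by a test of the difference itself, in limma's interaction contrasts, at an adjusted p of 0.05 or at the thresholds of the study. Each value is the change in Sp1-/- cells minus the change in Sp1+/+ cells, on the log2 scale, over 2 arrays a group.

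The change of Tk1 from Flk1+ to HE1 differed by 1.05 (unadjusted p = 0.00061, adjusted p = 0.0562). Tk1 moved in opposite directions, by -0.52 in Sp1+/+ and 0.53 in Sp1-/- cells, and the difference was 0.89 to 1.21 with 1 array left out, with the call lost under 2 of the 16. The change of Mki67 at the same step differed by -0.80 (adjusted p = 0.0382), by -0.90 to -0.71 with 1 array left out, with the adjusted threshold missed under 12 of the 16, and by -0.44, not passing, with the processed signal. The change of Mcm5 from Flk1+ to progenitors differed by 0.64 (adjusted p = 0.0311), by 0.53 to 0.74 with 1 array left out, with the adjusted threshold missed under 6. The change of Ccnd2 from Flk1+ to progenitors differed by -1.35 (unadjusted p = 0.00987, adjusted p = 0.112), by -1.59 to -1.11 with 1 array left out, and its call was lost under 9.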

How the results depend on the processing

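Of 3841 recomputed values of 149 member results, 3232 kept their direction and their side of the threshold, 608 kept the direction and were no longer past the threshold, and 1 reversed: Birc5 from Flk1+ to HE1 in Sp1-/- cells was 0.02 with the processed signal, against -0.28 as reported. The causes were not tested. Leaving out an array of a group outside a comparison cannot change its log2 difference. Many of these values therefore kept their direction by construction. The members called were, in the order Flk1+, HE1, HE2 and progenitors, 1, 0, 0 and 2 between the genotypes. Along the 3 steps they were 5, 1 and 0 in Sp1+/+ and 10, 4 and 1 in Sp1-/- cells. Of the interactions, that from Flk1+ to HE1 had 1, that from Flk1+ to progenitors 1 and the other steps 0. With the replicate number as a block (replicate block) all these counts were the same. The replicate numbers were not taken as pairs, since correlations of the deviations ran from -0.174 to 0.503, and with crossed numbers, chosen after seeing the data, HE2 had 0, progenitors 2 and the step from HE2 to progenitors in Sp1+/+ cells 0.

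By an adjusted p of 0.05 with no fold the counts were 5, 12, 3 and 5 between the genotypes, 25 and 15 for the first steps in Sp1+/+ and 39, 34 and 6 in Sp1-/- cells. With an adjusted p and 2-fold, the step from HE1 to HE2 in Sp1+/+ cells and both interactions from Flk1+ had 0. The mean over probes gave 1 in HE2. Student's t-test gave 0 in Flk1+ and 1 in progenitors between the genotypes, 2 and 0 for the first steps in Sp1+/+ and 5 and 2 in Sp1-/- cells. The offset of 16 and no background correction gave 0 for the interaction from Flk1+ to progenitors, and fits on the comparison's arrays alone gave 2 there and 0 from HE1 to HE2 in Sp1+/+ cells, as did fits on 1 genotype. The processed signal gave 1 in HE1, 1 in progenitors, 9 and 2 for the later steps in Sp1-/- cells, and 1 for the interaction from HE2 to progenitors. With it the median of all genes moved by up to -0.14 (Flk1+ to HE1, Sp1+/+) and 0.13 (genotypes in HE1), the G2/M median between the genotypes in Flk1+ cells went from 0.07 to -0.13 and the S phase interaction from Flk1+ to HE1 from -0.05 to 0.18. With 1 array left out the counts ran from 1 to 2, 0 to 2, 0 to 1 and 0 to 2 between the genotypes, 4 to 6, 0 to 2 and 0 to 1 in Sp1+/+, 9 to 12, 2 to 6 and 1 to 1 in Sp1-/- cells, and 0 to 1 for each interaction. Precision rests on 2 arrays a group.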
